A study of Mus musculus with 16 samples.

Results

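The libraries described here are those of conventional type 1 dendritic cells (cDC1s) carrying floxed alleles of both Xbp1 and the gene for IRE1, at the immature and at the mature stage. They were selected by the column names of the raw count table, with 4 mature and 4 immature Xbp1flIre1fl libraries, 8 of the 16 in the series, and no Xbp1fl library was used. Both stages were sorted from the spleens of C57BL6 mice at steady state, that is, without an infection or adjuvant, and each sort gave 5000 to 50000 cells. Both groups carry loxP sites in Xbp1, whose product switches on genes of protein folding and secretion, and in Ern1, which encodes the stress sensor IRE1 that activates it. These genes were left intact, and the labels give the condition of all 8 libraries as WT, with no Cre transgene and no sort gates named. Whether the 4 libraries of a stage are from 4 mice is not stated in the labels, so the p-values below measure the spread between these libraries, which may be technical.

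Dendritic cells that take up material from healthy tissue can mature without any infection, a process called homeostatic maturation. The cells switch on the chemokine receptor CCR7, which leads them to T cell areas, stop taking up antigen and present what they hold, and this form of maturation is best known for tolerance to self. Liver X receptors (LXR alpha and LXR beta) are nuclear receptors that sense oxidised cholesterol and switch on cholesterol export, and the series concerns their part in the homeostatic maturation of cDC1s. The question asked here is which genes differ between the stages in this genotype, and how far the 4 mature libraries differ among themselves.

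Total counts were 14543951 to 16287291 in the mature and 15083053 to 16595873 in the immature libraries, so that the floor of 3 counts, set for genes that had none, was worth 0.168 to 0.232 CPM (counts scaled to 1000000 per library). Between 13865 and 14607 genes had a count in a library. No pair of libraries of one stage agreed within sampling noise (chi-square divided by its degrees of freedom was 6.09 to 61). Replicate number 3 differed from the other numbers in both stages by sex-linked genes: Ddx3y, Kdm5d, Eif2s3y and Uty were at 0 in its libraries, and the summed level of these genes and Xist was 69.8 CPM in mature and 67.9 CPM in immature replicate 3, all of it Xist in these libraries. In the libraries of the other numbers Ddx3y was at 67.7 to 107 CPM and Xist at 0 to 0.188 CPM. By these genes the replicate numbers are of mixed sex, which the labels do not state. Replicate number 4 carried mRNA of pancreatic enzymes, a list added after the values were seen, with a summed level of 326 CPM in mature and 94.7 CPM in immature replicate 4 against 1.69 to 17.9 CPM in the other libraries. The genes that define cDC1s were present in all 8 libraries: Xcr1, the cDC1 chemokine receptor, lay between 434 and 832 CPM and Clec9a, a receptor for dead cells, between 112 and 199 CPM in every library.

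Maturation was the main difference between these libraries. The first principal component of log2 CPM held 76.8% of the variance and placed the immature libraries at scores of -52.7 to -47.3 and the mature ones at 61.9, 30.5, 72.6 and 36.7 in the order of replicate numbers 1 to 4, so mature replicates 2 and 4 lay nearer the immature libraries than mature replicates 1 and 3. The second component held 7.13%, with replicate 2 at 22.2 and replicate 4 at -27.3 among the mature libraries.

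**Figure D1:**
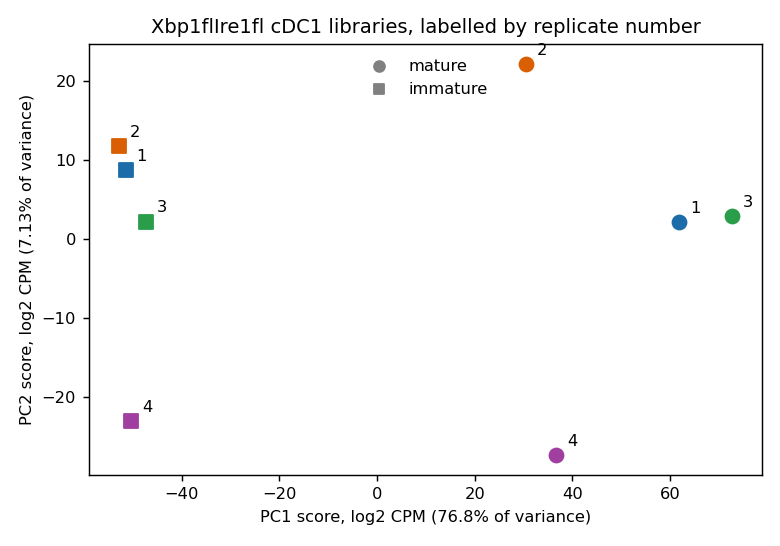
Principal component scores of the 8 libraries on log2 CPM of 11547 genes, with mature libraries as circles, immature libraries as squares, and the replicate number beside each and as its colour. The immature libraries sit together on the first axis between -52.7 and -47.3, and the mature ones spread from 30.5 to 72.6.

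Of 11547 genes tested with edgeR's quasi-likelihood test, 5544 (48%) were called at an adjusted p under 0.05 (Benjamini-Hochberg), 2901 higher (25.1%) and 2643 lower (22.9%) in mature cells. Large changes went mostly upward: 1303 genes (11.3%) were called higher and 128 (1.11%) lower by over 2-fold, 148 were called higher by over 16-fold, and 5 lower by over 4-fold, Elane, Prtn3, Mpo, Slc6a9 and Serpinb10. The stages did not overlap in 2632 genes (22.8%) that were higher in mature cells and 2461 (21.3%) that were lower. The calls above, and the SEs and adjusted p below unless the block is named, take no account of the replicate number. A fit with the replicate number as a block called 5993 genes, 3062 higher (26.5%) and 2931 lower (25.4%), of which 5433 were called in the same direction without it. The median log2 fold change of all genes was -0.02, but it was -0.14 under upper quartile scaling and -0.23 under plain library sizes, that is without a TMM factor, and the share of calls that were higher went from 52.3% to 37.9% and 30.2%. In bulk RNA, fewer cells of a type and less of an RNA per cell cannot be told apart.

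The largest rises were of genes at very low levels in immature cells. Oprd1, the delta opioid receptor (mm10 chromosome 4, 132110726 to 132144486, minus strand), was at 92.6, 44, 108 and 56.5 CPM in mature replicates 1 to 4, and had 3 counts over the 4 immature libraries. That is a ratio of 1699.7 with a 95% counting interval of 581 to 8245, which covers counting error only. Zfp872, a zinc finger protein gene (chromosome 9, 22188090 to 22202123, plus strand), was at 19.1, 8.68, 22.7 and 11.5 CPM in mature cells and without a count in immature cells, at least 349-fold higher when set against a floor of 3 counts over the group. Gcnt4, a glycosyltransferase gene, was also without an immature count and at least 216-fold higher, and Pla2g4f, a phospholipase gene, had 3 immature counts, a ratio of 678 (231 to 3289). The next 6 by the naming rule were Eno2, the neuronal form of enolase, Synpo2, Asprv1, Dscaml1, Tnfrsf4, which encodes OX40, and Insm1, with log2 fold changes of 7.79 to 8.53. In all 10 genes mature replicates 1 and 3 were both above replicate 2, and in all but Gcnt4 both were above replicate 4. In total 13 genes called higher by over 2-fold had no immature count and 16 had 1 to 3.

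The largest falls were smaller. Ccr2, the receptor by which monocytes and their kin answer CCL2, was at 19.2, 24.1, 14.1 and 26.1 CPM in mature and 77.1, 87.7, 62.7 and 103 CPM in immature replicates 1 to 4, and fell by 1.98 on the log2 scale (SE 0.20, adjusted p = 4.0e-05). Serpinb10, a serpin gene, was at 4.41 to 7.27 CPM against 21.7 to 25.5 CPM, and Cd34, a marker of blood progenitors, at 1.24 to 2.14 CPM against 5.02 to 5.89 CPM. Atp8b4, Atg9b, Dennd2c, Cysltr1, Lmo1 and Serpinb2 fell by 1.40 to 1.59 on the log2 scale. Mpo, the myeloperoxidase of granulocyte precursors, had the largest fitted fall of the 10 genes named by the rule (-3.65, adjusted p = 0.0028), from 5.07, 16.8, 2.08 and 9.87 CPM to 1.68, 0.551, 0.232 and 0.191 CPM. Elane, a protease gene of the same granules, was at 0, 0.276, 0 and 0 CPM against 0.924 to 4.63 CPM. Without mature replicates 2 and 4 the call of Mpo was lost (-3.08, adjusted p = 0.1), and neutrophil markers, among which it is counted, varied between libraries as described below.

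The genes that mark mature dendritic cells in many tissues moved together. Of 35 such genes 34 rose (97.1%, against 25.1% of all genes) and 0 fell, with a median log2 fold change of 3.48 against -0.02 over all genes. In all 35 the mature libraries were higher without overlap, as in 22.8% of all genes. Cst3, which encodes cystatin C, did not pass (0.23, adjusted p = 0.088), but was called with the replicate block (adjusted p = 0.039) and with DESeq2, which called 35 of 35. The list was chosen from what is known of dendritic cells and with earlier results of these data in view.

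Ccr7 (chromosome 11, 99144196 to 99155077, minus strand) was at 11917, 6649, 13437 and 5044 CPM in mature and 244, 148, 185 and 108 CPM in immature replicates 1 to 4. The stages did not overlap, and within each stage replicates 2 and 4 held the lower levels. It rose 54.2-fold (log2 fold change 5.76 ± 0.39, SE, adjusted p = 4.7e-06). Fscn1, whose product fascin bundles actin in dendrites (chromosome 5, 142960343 to 142973185, plus strand), was at 3245, 1659, 3392 and 2076 CPM in mature and 16.9, 7.79, 12.5 and 14.6 CPM in immature cells. Again mature replicates 1 and 3 were the higher ones, and the rise was 200.3-fold (7.65 ± 0.34, adjusted p = 1.4e-06). Anxa3, an annexin gene, and Zmynd15 rose by 6.07 and 6.47 on the log2 scale. Zmynd15 and Cxcl16 overlap at their starts on opposite strands (chromosome 11, 70459433 to 70466202 and 70453983 to 70459984), and as the use of strand in counting is not given in the sources used here, reads from the shared stretch cannot be told apart.

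**Figure D2:**
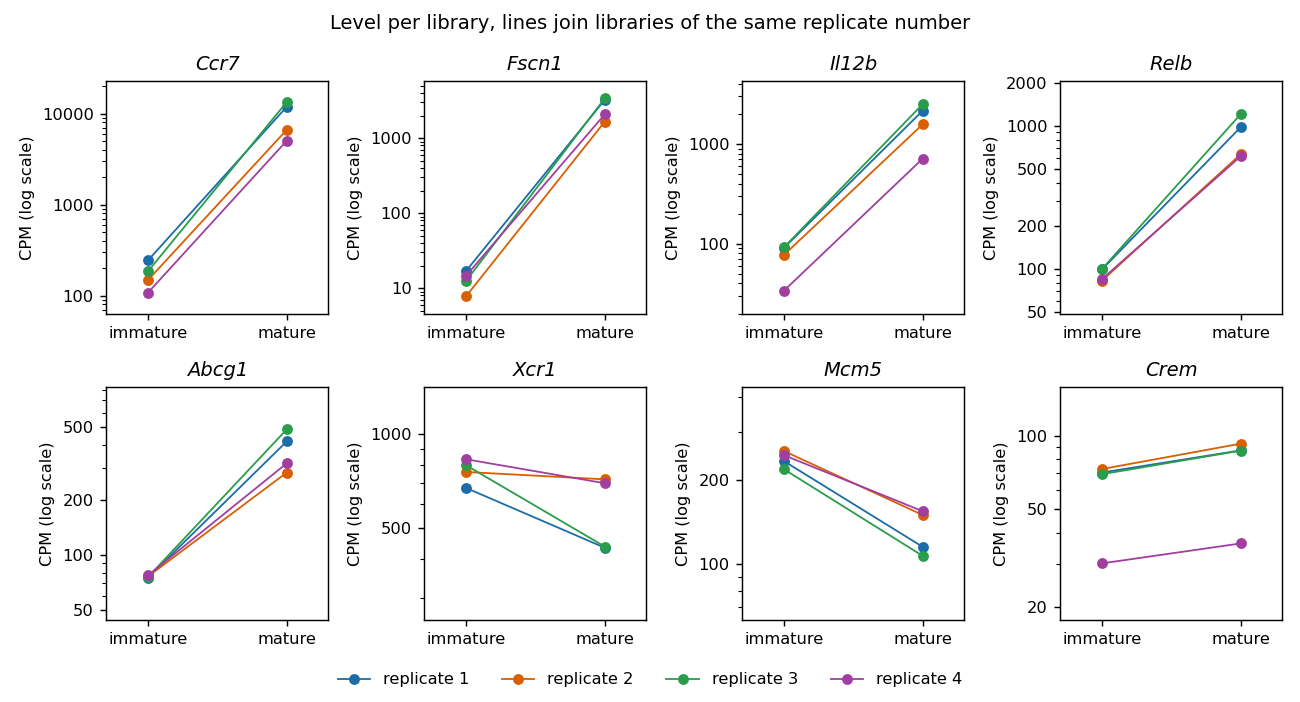
Level of 8 genes in each library in CPM on a log scale, immature at left and mature at right, with lines joining libraries of the same replicate number. Ccr7, Fscn1, Il12b, Relb and Abcg1 rise in all 4 pairs, mature replicates 1 and 3 stand apart from 2 and 4 for Relb, Xcr1 and Mcm5, and Crem is low in both libraries of number 4 (30.1 and 36.3 CPM).

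Of 18 chemotactic and egress receptors, which steer cells, 7 rose (38.9%, against 25.1% of all genes) and 4 fell (22.2%, against 22.9% of all genes), with 7 not called (list median of log2 fold changes 0.37). Besides Ccr7, Cxcr5, the receptor for the follicular chemokine CXCL13, rose by 3.35 ± 0.36, from 3.2 to 6.35 CPM to 46.6, 19.5, 68.3 and 43 CPM. Ccrl2, a receptor that holds chemerin at the cell surface, rose by 2.26. S1pr1, which lets lymphocytes leave tissues, rose by 2.86 ± 0.31, from 5.54 to 6.66 CPM to 47.8, 19.8, 67 and 43.9 CPM. Cxcr5 and S1pr1 were lowest in mature replicate 2, as were the summed B cell markers, a cell type in which both receptors are abundant (373 CPM in mature replicate 2 and 859 to 1249 CPM in the others), and the part of these cells in the rise was not tested. Of 15 chemokines 6 rose (40%, against 25.1% of all genes), 0 fell (against 22.9%) and 9 did not pass (median 0.50). Ccl22, which attracts CCR4-bearing T cells, was at 841, 518, 931 and 385 CPM in mature and 28.1, 18.1, 24.8 and 11.1 CPM in immature cells, and Ccl5 at 763, 402, 722 and 329 CPM against 8.08, 20.5, 11.4 and 7.18 CPM. Ccl22 was lowest in replicate 4 of both stages, so that its 4 pair differences (4.90, 4.83, 5.22 and 5.10 on the log2 scale) were closer to each other than its levels. One chemokine was called lower without mature replicate 2, Ccl2, which has its highest mature value there (-0.62, adjusted p = 0.033).

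Genes of co-stimulation, the second signal that T cells need, were mostly higher. Of 12 such ligands and receptors 9 rose against 1 that fell, with 2 not called (list median of log2 fold changes 1.53). The shares, 75% higher and 8.33% lower, stand beside 25.1% and 22.9% of all genes. Cd40, through which T cells license dendritic cells, was at 362, 245, 413 and 241 CPM in mature and 56.2 to 62.7 CPM in immature cells (2.41 ± 0.17, adjusted p = 5.9e-06), so the mature spread was far wider than the immature one. Icosl, the ligand of ICOS, rose by 2.71 ± 0.22, and Icam1, an adhesion molecule of the contact with T cells, by 1.53. Cd70, the ligand of CD27, had 2 counts in immature cells against 321 in mature cells, a ratio of 190.5 (52.3 to 1579). Cd86 was at 285 to 399.9 CPM in mature and 376 to 386 CPM in immature cells (-0.15, adjusted p = 0.22). The 1 gene that fell, Cd48, lost its call without mature replicate 1 or immature replicate 1 or 2, and 2 genes fell without mature replicate 2 and under upper quartile scaling and plain library sizes.

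Genes linked to tolerance rose in the same libraries. Of 14 tested 9 rose against 1 that fell, with 4 not called (list median of log2 fold changes 2.099), and 10 rose and 2 fell with the replicate block. Without the block that is 64.3% higher and 7.14% lower, against 25.1% and 22.9% of all genes. Socs2, a suppressor of cytokine signalling, was at 198, 99.3, 249 and 136 CPM in mature and 1.02 to 2.07 CPM in immature cells (6.70 ± 0.35, adjusted p = 1.4e-06). Aldh1a2, which makes retinoic acid, was at 48, 42.1, 68.5 and 41.6 CPM against 3.76 to 5.08 CPM (3.57 ± 0.19). Cd274, which encodes PD-L1, the ligand of the inhibitory receptor PD-1, was at 266, 219.9, 291 and 152 CPM against 26.9 to 33.8 CPM (2.94 ± 0.19). In each of these 3 genes the stages did not overlap and mature replicate 3 was highest. The gene that fell, Havcr2, which encodes TIM-3, lost its call without mature replicate 1 or immature replicate 1, 2 or 3, and 2 genes fell without mature replicate 2 or 4 and under upper quartile scaling and plain library sizes. Without mature replicate 2, or without any of the immature libraries, the list's median was 2.55 to 2.82.

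NF-kB transcription factors are held inactive by inhibitors of the IkB family, and a slower, non-canonical branch runs through the kinase encoded by Map3k14 to RelB and the Nfkb2 product. Of 23 genes of the pathway 21 rose against 1 that fell, with 1 not called (list median of log2 fold changes 1.56). These were 91.3% and 4.35%, where 25.1% and 22.9% of all genes rose and fell. Relb (chromosome 7, 19606217 to 19629438, minus strand) was at 981, 635, 1211 and 614 CPM in mature and 82.7 to 99.8 CPM in immature cells (3.23 ± 0.22, adjusted p = 4.6e-06). Traf1, an adaptor of tumour necrosis factor receptors, and Birc2, a ubiquitin ligase of the same complexes, rose by 2.76 and 2.62, and Map3k14 by 1.90. The inhibitor gene Nfkbia was at 1096, 848, 1159 and 613 CPM against 226 to 323 CPM, Nfkb2 at 706, 588, 855 and 482 CPM against 179.9 to 213 CPM, and Tnfaip3, which encodes the feedback inhibitor A20, at 759, 496, 774 and 410.0 CPM against 148 to 212 CPM. All 3 were lowest in replicate 4 of both stages. Nfkb1 fell by 0.39 (adjusted p = 0.0069).

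The promoters of these 3 genes and of Gbp5, an interferon-inducible GTPase gene that rose by 3.71 ± 0.23, hold matches to a kappaB type motif, GGG and TTTCC with any 2 bases between them, searched on both strands. They are shown because they are members of 2 lists that rose whose promoters hold the motifs searched, and they were chosen after the values were seen. Each line gives the 250 bases before the gene's start in RefSeq's GRCm38.p6 annotation, in the direction of transcription, with motif matches in capitals. The positions are chr12:55492648-55492897 (minus strand) for Nfkbia, chr19:46304487-46304736 (plus) for Nfkb2, chr10:19015411-19015660 (minus) for Tnfaip3 and chr3:142496684-142496933 (plus) for Gbp5. In the Gbp5 line the first match is to an IRF type motif, GAAA repeated after any 2 bases, on the opposite strand, and the second is of the kappaB type.
Nfkbia: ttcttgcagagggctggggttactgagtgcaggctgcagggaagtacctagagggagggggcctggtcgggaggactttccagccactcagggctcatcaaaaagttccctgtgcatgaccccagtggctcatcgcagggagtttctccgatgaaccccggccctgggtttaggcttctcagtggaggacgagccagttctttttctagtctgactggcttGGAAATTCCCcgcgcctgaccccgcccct
Nfkb2: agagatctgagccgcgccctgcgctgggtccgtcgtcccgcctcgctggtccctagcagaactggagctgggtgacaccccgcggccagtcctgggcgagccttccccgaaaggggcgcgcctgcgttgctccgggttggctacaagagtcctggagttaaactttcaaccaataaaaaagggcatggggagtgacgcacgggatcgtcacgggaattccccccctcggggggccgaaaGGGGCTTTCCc
Tnfaip3: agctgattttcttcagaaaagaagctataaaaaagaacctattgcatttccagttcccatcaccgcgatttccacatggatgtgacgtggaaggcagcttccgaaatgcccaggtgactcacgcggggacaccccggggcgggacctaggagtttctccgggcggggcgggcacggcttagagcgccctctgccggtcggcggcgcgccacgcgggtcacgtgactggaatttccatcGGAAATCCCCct
Gbp5: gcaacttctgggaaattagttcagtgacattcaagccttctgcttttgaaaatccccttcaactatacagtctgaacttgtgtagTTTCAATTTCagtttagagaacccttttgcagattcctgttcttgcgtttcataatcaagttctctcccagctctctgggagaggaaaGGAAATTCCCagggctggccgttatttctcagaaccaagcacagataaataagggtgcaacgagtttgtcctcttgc

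Promoters from 250 bases before to 50 after the start were found for 8885 of the 11547 genes tested. The shares below count 1 promoter per gene symbol, so other starts of a gene are not covered. The kappaB type motif was in 38 of 968 promoters (3.93%) of genes called higher by over 2-fold, in 1 of 98 (1.02%) of those called lower by over 2-fold, in 158 of 8885 (1.78%) of all genes tested and in 438 of 27025 (1.62%) of all promoters in the table. In the NF-kB pathway list 6 of 19 promoters held it, and in the maturation list 0 of 25 held it or the IRF type motif. The promoters of Fscn1 and Il12b held none of the motifs searched. The IRF type motif was in 46 of 968 promoters (4.75%) of genes higher by over 2-fold, against 295 of 8885 (3.32%) of all genes tested and 943 of 27025 (3.49%) of all promoters, and in 16 of 25 of interferon-stimulated genes. The LXR type motif, AGGTCA repeated after any 4 bases, was in 0 of the 8885 promoters of genes tested and in 3 of 27025 in the table. An exact motif this rare (0.0111% of the table) cannot tell gene sets apart, and its absence says nothing on LXR sites in these genes. A match is a stretch of letters and not a binding site, and the motifs do not overlap in the lines above.

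Cytokine genes were higher on balance. Of 15 tested 8 rose against 3 that fell, with 4 not called (list median of log2 fold changes 0.74). The share that rose was 53.3%, against 25.1% of all genes, and the share that fell, 20%, was near the 22.9% of all genes. Il12b, the subunit shared by interleukins 12 and 23 (chromosome 11, 44400063 to 44414033, plus strand), was at 2162, 1579, 2516 and 715 CPM in mature and 90.9, 77.3, 92.2 and 33.9 CPM in immature cells. Replicate 4 was lowest in both stages, by more than 2-fold, and the rise was 23.7-fold (4.57 ± 0.44, adjusted p = 2.9e-05, and 2.3e-08 with the replicate block). The SD of its 4 mature levels was 0.81 on the log2 scale and that of its 4 pair differences 0.19. Il15, which sustains CD8 T cells and NK cells, rose by 2.74, and Il27, at 4.34 to 7.61 CPM in mature cells, by 3.67. The 3 that fell were Il1a, Il16 and Il18, and 1 of them was called without mature replicate 1 or 3 or immature replicate 1 or 2.

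LXR targets were higher on balance. Of 24 LXR receptors and targets tested 13 rose (54.2%, against 25.1% of all genes) and 4 fell (16.7%, against 22.9% of all genes), with 7 not called (list median of log2 fold changes 0.92), though Ccr7, counted here as a gene linked to LXR, is also counted above. Abcg1, a cholesterol exporter (chromosome 17, 31057675 to 31117988, plus strand), was at 418, 283, 487 and 317 CPM in mature and 75.2 to 77.4 CPM in immature cells, a rise of 4.94-fold (2.30 ± 0.16, adjusted p = 4.6e-06). The 4 immature libraries thus differed by less than the mature ones, which were lowest in replicate 2. Abca1, the second exporter, was at 12.3, 3.58, 16.3 and 12.7 CPM against 1.94 to 2.6 CPM (2.29 ± 0.38, adjusted p = 9.8e-04), and its pair difference was 0.64 for replicate 2 and 2.37 to 2.59 for the others. Apoe, the apolipoprotein that accepts exported cholesterol, was at 352, 259, 386 and 336 CPM against 81.7 to 134 CPM (1.60 ± 0.16), and Nr1h3, the gene of LXR alpha, at 7.21, 4.41, 9.81 and 9.56 CPM against 2.65 to 3.58 CPM (1.36 ± 0.25).

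For Abca1, Apoe, Nr1h3 and the list as a whole, mature replicate 2 was the lowest library, and the list's median difference from the immature mean was 0.18 there and 0.93, 0.99 and 1.06 in mature replicates 1, 3 and 4. Macrophage markers, of a cell type in which these genes are abundant, were lowest in the same library: their summed level was 641 CPM in mature replicate 2 and 1148, 1333 and 1188 CPM in replicates 1, 3 and 4, against 275 to 371 CPM in immature cells. Their part in the difference was not tested. Of the lipid synthesis targets Scd1, a fatty acid desaturase gene, rose by 2.09 ± 0.26, while Fasn, fatty acid synthase, fell by 0.69 from 341 to 372 CPM to 201 to 251 CPM. The number of LXR list members that fell was 1 without mature replicate 1 or 3 or immature replicate 3 or 4, 2 without immature replicate 2, and 7 under plain library sizes.

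Of 29 genes of cholesterol synthesis and uptake 14 rose against 3 that fell, with 12 not called (list median of log2 fold changes 0.36), and 15 rose and 5 fell with the replicate block. Without the block 48.3% were higher and 10.3% lower, against 25.1% and 22.9% of all genes. Idi1, an isomerase of the synthesis pathway, was at 282, 144, 299 and 158 CPM in mature and 56.6 to 71.3 CPM in immature cells (1.82 ± 0.23, adjusted p = 1.7e-04). Mature replicates 1 and 3 lay above 2 and 4 by more than the whole range of the immature libraries. Npc2, which moves cholesterol out of lysosomes, rose by 0.68, whereas Ebp and Nsdhl, enzymes of late steps, fell by 0.34 and 0.44. With upper quartile normalization 5 fell and under plain library sizes 6.

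Genes that define cDC1s were lower on balance, with a few exceptions. Of 25 identity genes 3 rose against 13 that fell, with 9 not called (list median of log2 fold changes -0.41), and 16 fell with the replicate block, but 7 fell without mature replicate 1. With all libraries and no block 12% rose and 52% fell, against 25.1% and 22.9% of all genes. Xcr1 (chromosome 9, 123852315 to 123862029, minus strand) was at 434, 717, 437 and 697 CPM in mature and 674, 757, 796 and 832 CPM in immature cells. Mature replicates 2 and 4 reached the immature range and replicates 1 and 3 did not. Its log2 fold change of -0.42 ± 0.17 did not pass (adjusted p = 0.067), but it was called with the replicate block (-0.46, adjusted p = 0.015), under upper quartile scaling and plain library sizes and with DESeq2, limma-voom and limma on the deposited log2 table. It was also called without mature replicate 2 (adjusted p = 0.021) or 4 (0.028). Clec9a was at 137, 197, 112 and 173 CPM against 187 to 199 CPM, with mature replicate 2 alone in the immature range (-0.33, adjusted p = 0.088, and 0.042 with the block). It was called under upper quartile scaling and plain library sizes and without mature replicate 2 (0.012), but not with DESeq2 (0.0755), limma-voom (0.066) or limma on the deposited log2 table (0.065), or without mature replicate 4 (0.0645).

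Irf8, the transcription factor that cDC1s require, went from 3163, 3315, 3500.4 and 3928 CPM to 2315, 2867, 2114 and 3166 CPM and fell by 0.41 on the log2 scale (SE 0.13, adjusted p = 0.027), and the stages overlapped slightly. This call was lost without mature replicate 1 (adjusted p = 0.079) or 3 (0.052) and without immature replicate 3 (0.060) or 4 (0.077). Rab7b, a late endosomal GTPase gene, and Tlr3, a sensor of double-stranded RNA, fell by 0.73 and 0.96. The 3 that rose were Ly75, which encodes the uptake receptor DEC-205 (2.06 ± 0.18), Id2, a cDC1 lineage regulator (0.93 ± 0.13), and Cd8a (0.34). Batf3, Flt3 and Cadm1 had log2 fold changes of 0.05, -0.03 and -0.04 and did not pass.

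Proliferation genes were lower in mature cells almost without exception. Of 35 genes of DNA replication and mitosis 33 fell against 0 that rose, with 2 not called (list median of log2 fold changes -0.73). Thus 94.3% were lower, against 22.9% of all genes. Mcm5, a subunit of the replicative helicase, was at 115, 150.1, 107 and 155 CPM in mature and 235, 255, 219.5 and 247 CPM in immature cells (-0.86 ± 0.12, adjusted p = 3.7e-04). Mki67, the gene of the proliferation marker Ki-67, was at 28.4, 36.1, 44.9 and 29.8 CPM against 60.5, 59.8, 97.1 and 52.6 CPM (-0.96 ± 0.20), with replicate 3 highest in both stages, and its call was lost without mature replicates 2 and 4 (-0.88, adjusted p = 0.081). The mitotic cyclin gene Ccnb2 had the largest fall of the list (-1.22 ± 0.12), and the mitosis genes Birc5 and Aurka fell by 0.95 and 0.79. The summed level of the list was 1603, 1958, 1548 and 2048 CPM in mature replicates 1 to 4, so replicates 2 and 4 lay between the others and the immature range of 2849 to 3093 CPM.

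Antigen presentation genes of class I were higher on balance. Of 17 genes of MHC class I presentation 11 rose against 1 that fell, with 5 not called (list median of log2 fold changes 0.61). Their shares were 64.7% and 5.88%, against 25.1% and 22.9% of all genes. Nlrc5, the transactivator of class I genes, was at 367, 254, 394 and 224 CPM in mature and 66.5 to 92.9 CPM in immature cells (2.02 ± 0.19), and H2-K1 at 4705, 3819, 5378 and 3423 CPM against 1551 to 1721 CPM (1.41 ± 0.14). Tapbpl, a peptide editor of class I, rose by 1.22. Related class I genes may share reads with H2-K1, as may members of the Gbp, Oas and Ifit families, and how they were counted is not given in the sources used here. For MHC class II, of 14 genes 5 rose (35.7%) and 4 fell (28.6%), with 5 not called, shares closer to those of all genes, with a median of 0.05 that was -0.07 under upper quartile scaling and -0.17 under plain library sizes, where 7 fell. Ifi30, a lysosomal thiol reductase gene, and the protease gene Ctss rose by 1.59 and 0.48. Ciita, the class II transactivator, fell by 0.59 from 673 to 734 CPM to 410.0, 546, 372 and 542 CPM. H2-Eb2, a class II gene of restricted expression, rose from 7.68 to 14.6 CPM to 164, 98, 195 and 79.7 CPM (3.77 ± 0.32). Of 30 lysosomal genes 19 rose against 3 that fell, with 8 not called (list median 0.48). These shares were 63.3% and 10%, against 25.1% and 22.9% of all genes. Lamp1, a major protein of the lysosomal membrane, rose by 2.60 ± 0.20, the tetraspanin gene Cd63 by 6.79 ± 0.35 and the protease gene Lgmn by 2.18 ± 0.17. The lysosomal genes that fell numbered 1 without mature replicate 1, 5 without mature replicate 2, and 5 or 6 with the other scalings.

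Secretory pathway and respiratory chain genes were lower by small amounts. Of 32 genes of ER folding and XBP1 targets 18 fell against 4 that rose, with 10 not called (list median of log2 fold changes -0.32). That is 56.25% lower and 12.5% higher, against 22.9% and 25.1% of all genes. Xbp1, one of the floxed genes, was at 91.2, 87.2, 72.8 and 91.9 CPM in mature and 103, 113, 96.5 and 114 CPM in immature cells (-0.31 ± 0.09, adjusted p = 0.019), and its call was lost without immature replicate 2 (adjusted p = 0.054) or 4 (0.051). Ern1, the other floxed gene, was at 19.5 to 28.7 CPM against 25.2 to 33.1 CPM (-0.29, adjusted p = 0.098), and was called under upper quartile scaling and plain library sizes and without mature replicate 4 (adjusted p = 0.027). Sdf2l1, an ER chaperone gene, and Pdia6, a disulfide isomerase gene, fell by 0.85 and 0.71, Manf by 0.61, and Sel1l and Herpud1, of ER-associated degradation, rose by 0.74 and 0.59. Of 26 genes of the respiratory chain and ATP synthase 17 fell against 1 that rose, with 8 not called (median -0.27), but 11 fell without immature replicate 1. With all libraries 65.4% were lower and 3.85% higher, against 22.9% and 25.1% of all genes. Ndufb8, Ndufa9 and Atp5o fell by 0.58, 0.42 and 0.41. Of 17 glycolysis genes 3 rose (17.6%) and 5 fell (29.4%), with 9 not called (median -0.20), against 25.1% and 22.9% of all genes, and under plain library sizes 10 fell. The glycolysis gene Aldoa rose by 0.69 and Tpi1 fell by 0.49. Ldha, lactate dehydrogenase, fell by 0.71 from 994 to 1061 CPM to 546, 744, 469.8 and 771 CPM, with mature replicates 2 and 4 again nearer the immature range.

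Survival genes and interferon-stimulated genes were higher on balance. Of 21 survival and death genes 14 rose against 4 that fell, with 3 not called (list median of log2 fold changes 0.84). Cflar, an inhibitor of caspase 8, was at 347, 205, 411 and 219 CPM in mature and 33.1 to 38.6 CPM in immature cells (3.05 ± 0.22), the death receptor gene Fas rose by 3.43 ± 0.25, Bcl2l14 by 3.17, and Xiap, a caspase inhibitor gene, fell by 0.54. With library sizes only 7 fell. Of 32 interferon-stimulated genes 16 rose against 2 that fell, with 14 not called (list median 0.69), and 19 rose and 5 fell with the replicate block. Without the block 50% rose and 6.25% fell, against 25.1% and 22.9% of all genes. Oasl1 and Gbp2 rose by 3.13 and 2.81, and Irf7, a regulator of type I interferon, fell by 0.50 (adjusted p = 0.025), a call lost without immature replicate 3 (adjusted p = 0.075) or without mature replicates 2 and 4 (0.054). The list's summed level was highest in replicate 3 of both stages, at 2054 and 1514 CPM against 1655 to 1728 CPM in the other mature and 1167 to 1409 CPM in the other immature libraries. One gene of this list fell without immature replicate 3, and 4 fell under plain library sizes.

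Of 24 immediate early and stress genes, which can be induced while tissue is taken apart, 5 rose against 1 that fell, with 18 not called, and 9 rose and 3 fell with the replicate block. Without the block the share that rose (20.8%) was near that of all genes (25.1%), and fewer fell (4.17%, against 22.9%). Their median of 0.04 was -0.08 under upper quartile scaling, -0.18 under plain library sizes, -0.14 without mature replicate 2 and -0.09 without immature replicate 4. Fos fell by 0.66 and the phosphatase gene Dusp2, Zfp36 and Junb rose by 1.22, 0.73 and 0.61. In this list 3 genes fell without mature replicate 2 or 4, 2 without immature replicate 4, and 4 and 8 under upper quartile scaling and plain library sizes. Of 30 genes of actin and cell shape 14 rose against 4 that fell, with 12 not called, with a median of 0.19 that was -0.03 under plain library sizes, a scaling with which 7 rose and 10 fell. With TMM scaling 46.7% rose and 13.3% fell, against 25.1% and 22.9% of all genes. Marcksl1 and the myosin gene Myo1g rose by 3.75 and 1.98 in this list.

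**Figure D3:**
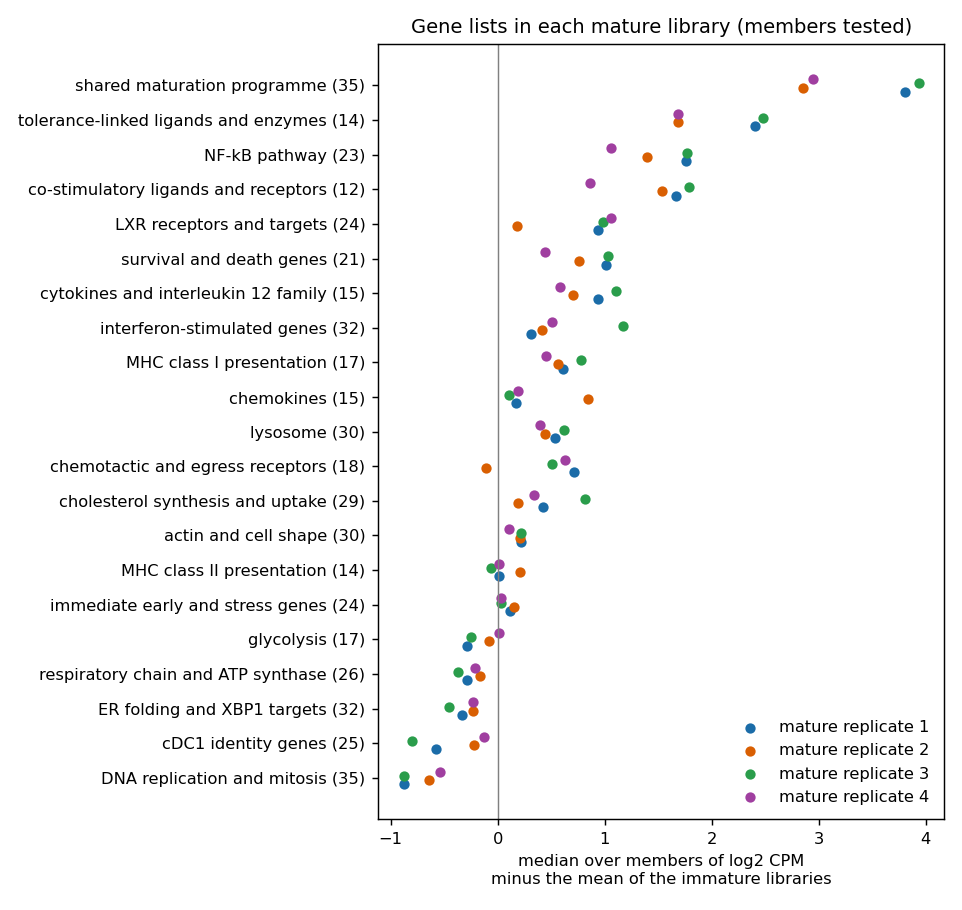
Median over the tested members of each gene list (their number in brackets) of log2 CPM in each mature library minus the mean of the 4 immature libraries. Mature replicates 1 and 3 lie farther from 0 than 2 and 4 for the maturation, NF-kB, cDC1 identity and replication lists, replicate 2 is lowest for the LXR list (0.18), and the medians of the actin, MHC class II and immediate early lists, near 0, change sign with another scaling.

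The 4 mature libraries differed from each other more than the 4 immature ones. The root mean square distance of a library from the mean of the other 3 of its stage, in log2 CPM over the genes tested, was 0.321, 0.466, 0.463 and 0.429 in mature replicates 1 to 4 (mean 0.420, SD 0.068) and 0.321, 0.334, 0.343 and 0.364 in immature replicates 1 to 4 (mean 0.340, SD 0.018). Mature replicate 1 was thus as close to its fellows as an immature library, and the other 3 were not. The SD of a gene over the 4 libraries was larger in mature than in immature cells in 8191 of 11547 genes (70.9%), with a median of 0.217 against 0.140. Among 7909 genes of at least 10 CPM it was 0.175 against 0.106, and 341 genes in mature and 96 in immature cells had an SD over 0.5.

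**Figure D4:**
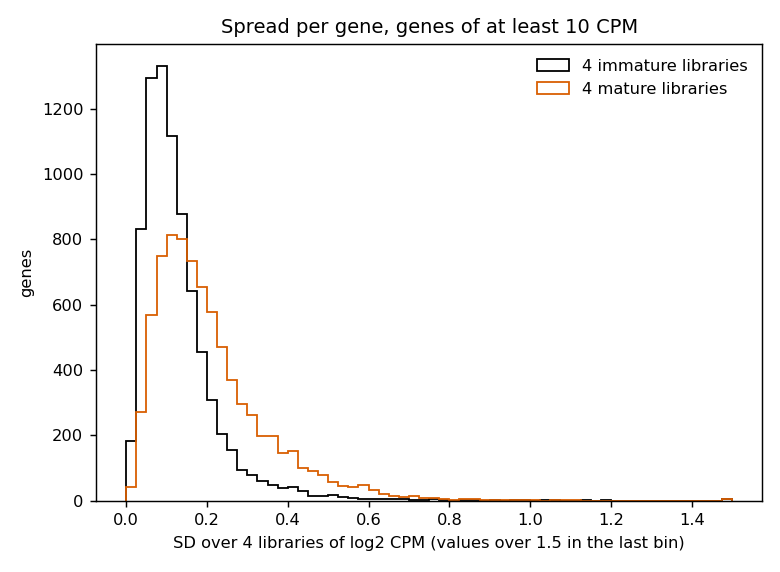
Number of genes by the SD of their log2 CPM over the 4 mature and over the 4 immature libraries, for 7909 genes with a mean of at least 10 CPM. The mature distribution is shifted to the right, with a median of 0.175 against 0.106.

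Part of the mature spread lay along the difference between the stages. Set on a scale where 0 is the immature mean and 1 the mean of the other 3 mature libraries, replicates 1 to 4 lay at 1.13, 0.729, 1.24 and 0.795. This direction held 12.7%, 34.0%, 21.3% and 22.1% of each library's squared deviation from the mean of the others. Most of the deviation, which includes counting error, lay elsewhere. Genes that differed between stages by over 2-fold had a larger spread in both stages: the median SD over mature libraries was 0.464 for genes called higher by over 2-fold and 0.404 for those called lower by over 2-fold, and 0.196 for genes not called. The immature libraries showed the same ranking, with 0.296, 0.224 and 0.159. These sets were not matched for level or limited to genes of at least 10 CPM. The part of counting error in the ranking was not tested. Of the 1303 genes called higher by over 2-fold, 923 (70.8%) were highest in mature replicate 3 and 288 (22.1%) in replicate 1, and 737 (56.6%) were lowest in replicate 2 and 524 (40.2%) in replicate 4. Replicates 1 and 3 were both above replicates 2 and 4 in 1034 of them (79.4%), and in 940 of the 6003 genes not called (15.7%). Of the 128 called lower by over 2-fold, replicates 1 and 3 were both below 2 and 4 in 73 (57.0%).

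Gene lists gave the same order with exceptions. Against the other 3 mature libraries the median of the maturation list was 0.47, -0.49, 0.62 and -0.59 in mature replicates 1 to 4, where the median of all genes was 0.00 to 0.01. That of the cDC1 identity list was -0.18, 0.31, -0.47 and 0.32, and that of DNA replication and mitosis -0.20, 0.16, -0.23 and 0.28, in the opposite sense. Co-stimulatory genes were low in replicate 4 (-0.72) but not in replicate 2 (0.12), and so were chemokines (-0.53 and 0.15). The LXR list was low in replicate 2 (-0.24) but not in replicate 4 (0.21).

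Libraries of the same replicate number shared part of their deviation. They deviated from their stage means in the same genes, with correlations across 7909 genes of 0.28, 0.335, 0.5 and 0.519 for numbers 1 to 4, against -0.285 to 0.238 for different numbers. These are descriptions across genes, which are not independent replicates. For some genes the pair difference was far steadier than the level. Crem, a regulator of cyclic AMP responses, was at 87, 92.7, 86.8 and 36.3 CPM in mature and 70.6, 73, 69.5 and 30.1 CPM in immature cells, with pair differences of 0.30, 0.34, 0.32 and 0.27 on the log2 scale. It did not pass without the block (0.32, adjusted p = 0.44) and passed with it (0.31, adjusted p = 0.0051). Lrrc32, which encodes GARP, a carrier of latent TGF-beta, was at 88.6, 108, 105 and 31 CPM against 26.9, 27.7, 24.1 and 9.26 CPM, also lowest in number 4 of both stages, and rose by 1.92 ± 0.40 (adjusted p = 0.0034, and 1.9e-06 with the block). Slc25a33, a mitochondrial carrier gene, had the same pattern, and passed with the block (0.57, adjusted p = 0.0013) and not without it (adjusted p = 0.25), though also without mature replicate 4 (0.048).

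The block also turned the calls of Notch4 (-0.63, adjusted p = 0.0053), Gprc5a (0.46, 0.018), Gpr146 (-0.48, 0.027), Ffar4 (-0.43, 0.034), Bhlhe41 (0.38, 0.044) and Smc3 (-0.23, 0.045), all with adjusted p of 0.11 to 0.49 without it. Without the block, Notch4 was also called without mature replicate 2 (adjusted p = 0.0023), and Gprc5a, Gpr146 and Ffar4 without mature replicate 4 (0.027, 0.011 and 0.033). Ddx3y and Uty, Y-linked genes at 0 in both libraries of number 3, were called higher with the block and not without it (Ddx3y 0.44, adjusted p = 0.0070). Over all genes tested the median SD of the 4 pair differences was 0.228, where the SDs of the 2 stages combined as if unpaired gave 0.276, and the mature levels alone had 0.217. For genes called higher by over 2-fold these values were 0.463, 0.573 and 0.464. The median pair difference of those 1303 genes was 2.06, 1.39, 2.09 and 1.55 for numbers 1 to 4, the same order as the levels.

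Each mature library stood apart from the other 3 in some genes. In 18 of the 24 genes with the widest gaps (3 above and 3 below the other mature libraries, for each library), the immature library of the same number was the highest or lowest of its stage on the same side. The exceptions were Bhlhe41, Slc40a1, Slpi, Itgad, Cd2 and Nqo2. Slc40a1 was called higher (1.44, adjusted p = 0.011), a call lost without mature replicate 3 (0.067). Replicate 2 was low in Slc40a1, the iron exporter of red pulp macrophages (29.9 CPM against 117 to 127 CPM in the other mature libraries), Itgad, an integrin gene also used by those macrophages (5.24 against 18.2 to 28 CPM), and Slpi, a secreted protease inhibitor (6.89 against 24.9 to 27.9 CPM). It was high in Ccl2, Cxcl10 and Notch4. Replicate 3 was low in Nqo2, a quinone reductase gene (5.1 against 13.5 to 14.3 CPM, with immature cells at 21.2 to 23.5 CPM), Hic1 and Lrrc28, and high in Cd2, Dusp5, a phosphatase gene, and Tnfrsf13c, the B cell receptor for BAFF. Lrrc28 fell by 0.71 (adjusted p = 0.042) but kept that call only without mature replicate 3 or 4 among the fits that left out 1 library. Replicate 1 was high in Bhlhe41, Gprc5a and Tsc22d3, a glucocorticoid response gene (354 against 205 to 239 CPM), which was high in immature replicate 1 too (397 against 216 to 239 CPM), and low in Smc3, Irf7 and Ffar4. Replicate 4 was high in the pancreatic enzyme genes Pnlip (56 against 0 to 2.22 CPM) and Cela2a, and in Gpr146. Iigp1, an interferon-inducible GTPase gene, was highest in number 4 of both stages (25.6 and 21.5 CPM).

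Markers of other cell types moved with the stage and with these libraries, where 25.1% of all genes were called higher and 22.9% lower. All 12 B cell markers tested rose (median log2 fold change 2.83), from a summed level of 122 to 185 CPM in immature to 870, 373, 1249 and 859 CPM in mature replicates 1 to 4, and none was at 0 in all libraries. Ms4a1, which encodes CD20, rose from 34.3 to 46.4 CPM to 210.2, 114, 294 and 145 CPM, and the stages did not overlap. Among 15 markers of splenic macrophages 13 rose and 2 were not called (list median 1.65), with Vcam1 at 411, 237, 484 and 315 CPM against 61.8 to 81.9 CPM, and 7 of the 15 did not overlap between the stages, where 22.8% of all genes were higher without overlap. The complement gene C1qa was at 33.5, 11, 33.2 and 45.6 CPM against 7.77 to 11.9 CPM, so that mature replicate 2 lay within the immature range. Of 7 plasma cell markers 5 rose and 1, Xbp1, fell (median 1.77, with 0 falling without immature replicate 2 or 4). Jchain, which joins immunoglobulin chains, was at 352, 99.5, 541 and 201 CPM against 69.7 to 170.2 CPM, called at an adjusted p = 0.038, and at 0.054 to 0.17 not called without mature replicate 1 or 3 or immature replicate 1, 2 or 3. The Jchain call was also lost under upper quartile scaling (0.053), plain library sizes (0.075), limma-voom (0.054), limma on the deposited log2 table (0.051) and no filter on low counts (0.12). Mzb1, of the same list, rose by 2.49, from 3.56 to 7.57 CPM to 45.3, 8.89, 47.6 and 30 CPM. The part of other cells in the spread and in the calls was not tested.

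Of 9 T cell markers 6 rose (median 0.88), but 3 without mature replicate 1, 2 or 3 or immature replicate 1, 3 or 4, and 3 under plain library sizes. With all libraries 66.7% rose, against 25.1% of all genes. Tcf7, a T cell transcription factor gene, was at 98.7, 60.2, 125 and 62.1 CPM against 6.52 to 11.7 CPM. Of 11 cDC2 markers 5 rose and 0 fell (median 0.62), among them Irf4 (1.98), which mature dendritic cells of other types express too, and Sirpa (1.43). The cDC2 shares were 45.5% and 0%, against 25.1% and 22.9% of all genes. Of 10 markers of plasmacytoid dendritic cells 3 rose (30%) and 2 fell (20%), near the 25.1% and 22.9% of all genes. Their median of 0.08 was -0.04 under upper quartile scaling and -0.13 under plain library sizes. One of these fell without mature replicate 1 or 3 or immature replicate 3 or 4. Of 9 NK cell markers 0 rose and 1 fell, Klrk1 (-0.97), and 3 rose without immature replicate 2, the library highest in the list (181 CPM against 145 to 158 CPM in the other immature libraries).

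Neutrophil markers were summed at 50.1 CPM in mature replicate 2 and 4.17 to 6.31 CPM in the other mature libraries, and at 43.5 CPM in immature replicate 2 and 11.1 to 25 CPM in the other immature ones. Of 8 tested 1 rose (12.5%, against 25.1% of all genes) and 2 fell (25%, against 22.9%), but 7 fell without mature replicate 2. S100a8, a calcium-binding protein of neutrophils, was at 7.37 CPM in mature replicate 2 and at 0, 0.154 and 0.319 CPM in replicates 1, 3 and 4. Of 4 stromal and endothelial markers 1 rose and 1, Pecam1, fell (-0.49, adjusted p = 0.024), a call lost without mature replicate 2 (adjusted p = 0.054) or immature replicate 1 (0.065), and 2 fell without mature replicate 4. Of platelet markers 0 of 3 passed and of erythroid markers 0 of 1, Alas2, and of 8 pancreatic enzyme genes tested 0 passed with an adjusted p under 0.05, though Pnlip and Cela2a had log2 fold changes of 1.62 and 1.56 that were -2.62 and -2.405 without mature replicate 4.

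**Figure D5:**
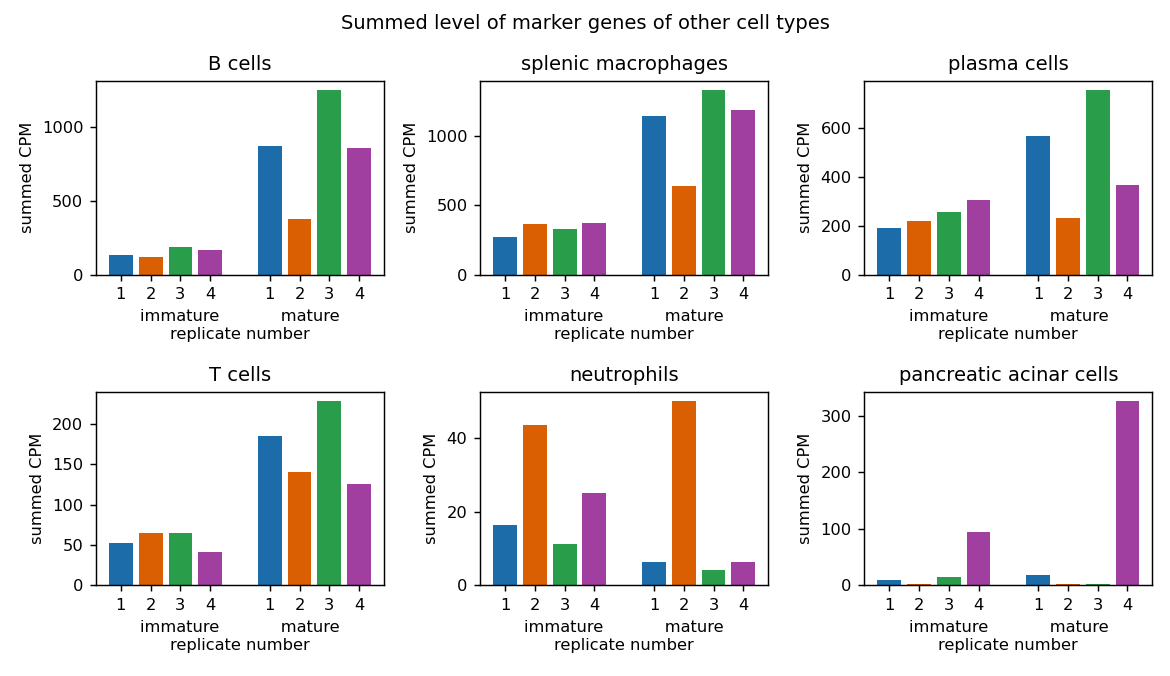
Summed CPM of marker genes of 6 other cell types in each library, immature at left and mature at right, by replicate number. B cell, macrophage and T cell markers are higher in mature libraries. So are plasma cell markers, except in mature replicate 2, which at 231 CPM lies within the immature range (192 to 308 CPM). The plasma cell sum includes Xbp1, at 72.8 to 91.9 CPM in mature and 96.5 to 114 CPM in immature libraries. How much of this Xbp1 came from plasma cells was not tested. Replicate 2 is lowest among mature libraries for B cell, macrophage and plasma cell markers. Neutrophil markers are highest in the libraries of number 2 (43.5 and 50.1 CPM), and pancreatic genes in those of number 4 (94.7 and 326 CPM).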

How the data were processed

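RNA was sequenced in bulk from sorted cDC1s, 4 mature and 4 immature libraries of Xbp1flIre1fl mice, grouped by the labels. The build mm10 and TopHat2 2.1.0, Trimmomatic 0.35, limma 3.42.2, SAMtools 0.1.19 and FastQC 0.11.4 are listed, without roles, in the submitters' processing notes. The read counter, annotation and use of strand are not given in the sources used here. The authors deposited raw counts of 24421 genes and a table of log2 values of 11843 genes, which lie close to log2 CPM plus a constant per library (residual SD of 0.018 to 0.0298).

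The counts were tested with edgeR 4.0.16 in R 4.3.3 (filterByExpr, TMM scaling, robust quasi-likelihood F-test, 1 mean per stage, 6 residual degrees of freedom, Benjamini-Hochberg adjustment over 11547 genes). Levels are TMM-scaled CPM, and SDs and distances use log2 CPM with a prior count of 2. The procedure was tested on simulated data for this comparison, where it called 90% of genes lowered by 1 on the log2 scale and 100% of those raised by 1. It also made 13 false calls. The simulation changed only 50 genes per effect size, equally up and down, with the same scatter in both stages and no pairing. It thus does not show how the procedure does with the many, mostly upward changes and wider mature spread of these data. Same-numbered libraries deviated together (r of 0.28 to 0.519 across genes), so the numbers pair the libraries, though the labels do not say what a number shares. The main fit ignores this pairing, and its adjusted p can differ from those of a paired fit in either direction. With the block 560 genes were called that the main fit did not call, and 111 calls of the main fit were lost. A gene that did not pass in the main fit is thus not shown to be unchanged between paired libraries. A fit with the number as a block was run as an alternative, as were other scalings, filters, DESeq2 1.42.0, limma-voom and limma on the deposited log2 table (limma 3.58.1), and leaving out each library.

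Genes were named by rule: the 10 largest rises and falls among called genes of at least 5 CPM in the higher stage whose stages did not overlap, the 3 smallest adjusted p of each pathway list, the most abundant member of each marker list, the 10 largest SDs in mature cells, the 3 genes farthest above and below in each mature library, and 16 listed genes. Other genes are examples chosen after their values were seen. Some genes that the rule names are not reported here. The libraries, lists and genes were chosen with earlier results of these data known. Gene positions are from GENCODE M21 and promoters from RefSeq. Counting intervals and floors cover counting error only. Ighm, Ighd, Trac, Trbc1, Trbc2 and Ly6g were not analysed here.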

Additional observations from a re-analysis of the deposited data

Results flagged for a closer look

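In groups of 4 libraries, a value stood apart when its gap to the nearest other library divided by the group's range exceeded Dixon's 95% critical value. This held for 30 of 321 values tested. Chance gives about 1 in 20 for values that were not picked by their spread. Genes named for wide gaps or large SDs in mature cells were among those tested, as was the pancreatic list, added after the values were seen. The count therefore cannot be set against that rate.

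In the mature group, replicate 2 was highest in Ccl2 (17.4 CPM, the nearest other library at 8.34), Cxcl10 (79.5, nearest 44.3) and Notch4 (90.3, nearest 44.5), and in the summed MHC class II genes (82300 CPM, nearest 70900) and neutrophil markers (50.1 CPM, nearest 6.31). It was lowest in Slc40a1 (29.9 CPM, nearest 117) and Slpi (6.89, nearest 24.9). Replicate 3 was lowest in Hic1 (27.3 CPM, nearest 69.7) and Nqo2 (5.1, nearest 13.5), and replicate 1 in Irf7 (82 CPM, nearest 124). Replicate 4 was highest in Pnlip (56 CPM, nearest 2.22), Cela2a (47.1, nearest 2.22) and Gpr146 (20.8, nearest 8.42), in the summed pancreatic genes (326 CPM, nearest 17.9) and in the summed platelet markers (28.1 CPM, nearest 6.67), and lowest in Crem (36.3 CPM, nearest 86.8).

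In the immature group, replicate 4 was highest in Pnlip (15.8 CPM, nearest 1.79), Cela2a (13.2, nearest 2.08), Itga2b (6.9, nearest 2.65), Birc2 (26.2, nearest 23.1) and Icam1 (361, nearest 323), and in the summed pancreatic genes (94.7 CPM, nearest 14.3) and platelet markers (17 CPM, nearest 4.68), and lowest in Crem (30.1 CPM, nearest 69.5). Replicate 1 was highest in Bcl2l14 (64.4 CPM, nearest 48.9) and Tsc22d3 (397, nearest 239). Replicate 2 was the only library with counts of Pla2g4f (0.169 CPM, the others at 0). Replicate 3 was lowest in Ddx3y (0 CPM, nearest 67.7), Il27 (0.115, nearest 0.505) and the summed sex-linked genes (67.9 CPM, nearest 136). Both stages were listed for number 4 in Pnlip, Cela2a, Crem, the pancreatic genes and the platelet markers.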

How the results depend on the processing

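The number of genes called was 5544, and 5466 to 5809 with DESeq2, limma-voom, limma on the deposited log2 table, DESeq2's size factors, no robust estimation and other filters on low counts. With the replicate block it was 5993, and the block changed the calls of the named genes only where given beside them. Library sizes only gave 4648 lower calls, and the 128 lower calls over 2-fold became 420 there and 257 with upper quartile scaling. A test against a 2-fold change called 735 genes, 727 higher and 8 lower. Leaving out 1 library gave 4353 to 5926 calls, 2452 to 3051 higher and 1901 to 2875 lower, 1132 to 1472 higher over 2-fold and 90 to 258 lower over 2-fold, with 222 without mature replicate 2 and 258 without mature replicate 4. Leaving out both, chosen after seeing the data, gave 528 lower over 2-fold among 6698. The mean distance of a library from its group was 0.302 in mature and 0.213 in immature cells for genes of at least 10 CPM, 0.4945 and 0.446 in the deposited log2 table, 0.458 and 0.403 with a prior count of 0.5, 0.420 to 0.494 without 1 mature library, and 0.348 to 0.371 without 1 immature library.

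Of 125 named genes, 8 changed sign under some setting, none of them called. Cela2a was at -0.20 with limma-voom, -0.36 in the deposited log2 table, -2.405 without mature replicate 4 and -1.86 without both, and Pnlip at -0.51, -0.65, -2.62 and -2.03. Cxcl10 was at -0.001389 with library sizes only, -0.077 without mature replicate 2 and -0.046 without both. Tsc22d3 was at 0.017 without mature replicate 2, 0.17 without immature replicate 1 and 0.11 without both. Iigp1 and Itga2b were at -0.42 and -0.34 without mature replicate 4 and -0.74 and -0.45 without both, Clec12a at 0.0054 without immature replicate 1 and Ddx3y at -0.017 without both. Over the fits that left out 1 library, Cela2a lay between -2.405 and 3.38, Pnlip between -2.62 and 3.82, Cxcl10 between -0.077 and 0.31, Tsc22d3 between -0.27 and 0.17, Iigp1 between -0.42 and 0.93, Itga2b between -0.34 and 1.22 and Clec12a between -0.11 and 0.0054. The cause was not tested. Of the 102 called, 9 lost the call under some setting other than the 2-fold test. Genes under the floor of 3 counts could not be compared at this depth.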
